A study of Mus musculus with 4 samples.

Results

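Genes of the horizontal cells and of the retinal gap junctions were compared in *rd7* and wild-type mouse retinas: *Lhx1*, *Onecut1*, *Onecut2*, *Prox1*, *Ptf1a* and *Calb1* as factors and markers of horizontal cells, and *Gjd2*, *Gja10*, *Gjc1* and *Gja1* as connexin genes. They were chosen by name and make up 10 of the 22095 loci in the expression table, and all 10 were listed there. Polyadenylated RNA was sequenced from 2 *rd7* libraries, labelled Nr2e3 mutant, and 2 wild-type libraries. Both genotypes carry the strain label C57BL/6J and were taken at 3 weeks of age. Each library came from 8 retinas of 2 male and 2 female mice, so that the animals were pooled within a library and n = 2 per genotype is a number of pools. *rd7* mice lack the function of Nr2e3, a nuclear receptor that represses cone genes in developing rods, and the mutation is present in every cell of the animal.

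Horizontal cells are inhibitory interneurons of the outer retina. They receive input from rods and cones and feed back onto the photoreceptor terminals, and they are coupled to each other into wide networks by gap junctions. Gap junctions are channels made of connexins, and in the retina they also join cones to rods, cones to cones, AII amacrine cells to cone bipolar cells, and glial cells to one another. Most of these genes are expressed by more than 1 retinal cell type, and in whole retina a difference in the number of cells of a type and a difference in RNA per cell cannot be told apart.

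Levels are given as FPKM, the read count of a gene divided by its transcript length and by the depth of the library, which are per length and can therefore be compared between genes. Differences are log2 fold changes (*rd7* minus wild-type) on the log2(FPKM + 0.1) scale with their SE. They come from a limma fit over 12655 genes, those whose FPKM averaged 1 or more over the 4 libraries, with p-values adjusted over all of these genes by the Benjamini-Hochberg method, and genes with an adjusted p under 0.05 are called higher or lower. The libraries were estimated to hold between 3.56e+07 and 3.76e+07 reads. The FPKM of *Nr2e3* itself was 2493 and 1589 in *rd7* and 385 and 394 in wild-type retinas, so the mutant label was not matched by a loss of its mRNA. Over all genes tested, the median log2 fold change was 0.15, and -0.0049 when the libraries were instead scaled by the median ratio. With that scaling the calls over all genes went from 4755 higher and 1114 lower to 2492 higher and 2479 lower, so changes near 0.15 are within what the choice of scaling moves.

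Of the 10 genes, 9 had both *rd7* libraries above both wild-type libraries, an order shown by 57.1% of all genes tested and by 40.2% of the 21833 genes measured when no filter on FPKM was set. The opposite order was shown by 19.5% of all genes tested. *Ptf1a* was the exception, with overlapping libraries. Of the 8 genes that passed the filter on low FPKM, 8 were called higher and 0 lower in *rd7*, where 37.6% of all genes tested were called higher, 8.80% lower and 46.4% in either direction. This count is no support for a shift of the group, since *Lhx1* and *Gja10* passed the filter only through their *rd7* libraries, with a wild-type mean below 1. At an unadjusted p under 0.05 by limma, too, 0 members were lower. At that threshold at least 8.80% of all genes tested were lower, and the exact share was not computed. The calls were not equally firm. *Prox1* was called in all 13 alternatives read at an FDR of 5%. *Lhx1*, *Gjd2* and *Gjc1* lost the call under either other scaling, by median ratio or by quantiles. The alternatives counted or listed for single genes leave out the FDR of 1%. At that FDR the members called were *Prox1*, *Calb1*, *Gja1* and *Gja10*, where 2582 of the 12655 genes tested were called higher. The number of members called higher was 5 with median-ratio scaling, where 19.7% of all genes were, and 4 with quantile normalization, where 18.6% were. It was 4 after correcting the fold changes for GC content and transcript length (12.4% of all genes) and 4 of 10 when no filter was set (10.3%).

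**Figure D1:**
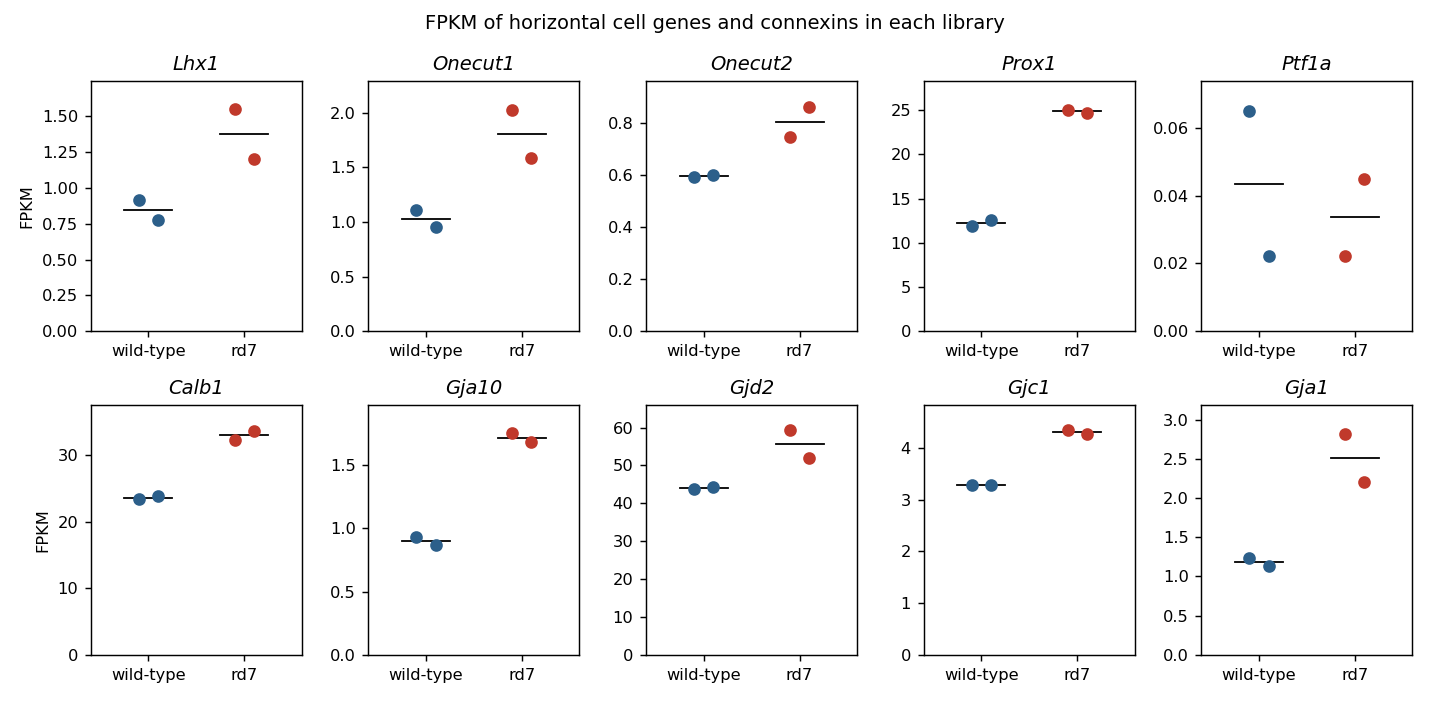
FPKM (y axis, linear, from 0) of each of the 10 genes in the wild-type and *rd7* libraries, with 1 point per library and a line at the mean of each genotype. In 9 panels the *rd7* points lie above the wild-type points, with *Prox1* at 24.7 and 25.1 against 11.9 and 12.6, and in the *Ptf1a* panel they overlap.

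In wild-type retinas the order of the 10 levels, as mean FPKM, was *Gjd2* at 44.0, *Calb1* at 23.6, *Prox1* at 12.2, *Gjc1* at 3.28, *Gja1* at 1.18, *Onecut1* at 1.03, *Gja10* at 0.901, *Lhx1* at 0.846, *Onecut2* at 0.597 and *Ptf1a* at 0.0435. The wild-type libraries of *Gja10* and *Lhx1* overlapped, so the order of this pair is not set. All other neighbours in the order were separated in both libraries, although some only narrowly. *Gja1* and *Onecut1* stood at 1.13 against 1.11 FPKM in their nearest libraries, and *Onecut1* and *Gja10* at 0.956 against 0.933 FPKM. Between *Gjd2* and *Gjc1* the levels span the wild-type expression range, since 88.9% of all genes tested had a lower wild-type FPKM than *Gjd2* and 20.1% a lower one than *Gjc1*. The 6 others lie near or below the filter.

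*Prox1* showed the clearest difference. This homeobox gene (mm9 chr1:191945658-191994559, minus strand) is needed for the formation of horizontal cells and is also expressed in AII amacrine cells and bipolar cells. Its FPKM was 25.1 and 24.7 in *rd7* and 11.9 and 12.6 in wild-type retinas. The *rd7* libraries were on average 2.03-fold above the wild-type libraries, and the replicates of each genotype lay close together. The log2 fold change was 1.02 (SE 0.06, adjusted p = 0.00038 by limma), larger than that of 98.0% of the genes tested. It stayed between 0.85 and 1.06 over the alternatives and was called in 13 of 13 of them.

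*Onecut1* (chr9:74709728-74737454, plus strand) encodes a transcription factor required for the genesis and maintenance of horizontal cells. Its FPKM was 2.03 and 1.59 in *rd7* and 1.11 and 0.956 in wild-type retinas, from an estimated 76.0 to 154 reads per library. Both *rd7* libraries were above, and they differed from each other more than the wild-type libraries did. The log2 fold change was 0.75 (SE 0.18, adjusted p = 0.0191). The call was lost with quantile normalization (adjusted p = 0.0563), with no filter on FPKM (adjusted p = 0.119), and without wild-type replicate 1 (adjusted p = 0.0764) or replicate 2 (adjusted p = 0.108). *Onecut1* lies 14.9 Mb from *Nr2e3* on the same chromosome.

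*Lhx1* (chr11:84332881-84339036, minus strand) encodes a LIM homeodomain factor that places horizontal cells in their layer. Its FPKM was 1.55 and 1.20 in *rd7* and 0.919 and 0.774 in wild-type retinas, with no overlap. The log2 fold change was 0.64 (SE 0.20), with an adjusted p of 0.0438 that only just passed. It was called in 5 of 11 alternatives and not with median-ratio scaling (0.50, adjusted p = 0.0979). Leaving out wild-type replicate 1 or replicate 2 raised the adjusted p to 0.121 and 0.198, and without *rd7* replicate 1 the gene fell below the filter.

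*Onecut2*, a paralog of *Onecut1* on chromosome 18 that acts together with it in horizontal cells, had an FPKM of 0.746 and 0.860 in *rd7* and 0.593 and 0.600 in wild-type retinas. Its mean was below the filter and it was not tested with the others. In the fit without a filter its log2 fold change was 0.37 (SE 0.12, adjusted p = 0.172), which is not past the threshold although the libraries did not overlap. *Ptf1a* (chr2:19367290-19369126, plus strand), which commits retinal progenitors to the horizontal and amacrine fates and is then switched off, was close to 0 at this age. Its FPKM was 0.0222 and 0.0450 in *rd7* and 0.0650 and 0.0221 in wild-type retinas, worth an estimated 1.19 to 3.58 reads against a floor of 3 reads. No fold change is given for it, and a difference between the genotypes was not detectable at this depth.

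*Calb1* (chr4:15808411-15833856, plus strand) encodes the calcium buffer calbindin, a standard label of mouse horizontal cells that some amacrine and ganglion cells share. Its FPKM was 32.3 and 33.7 in *rd7* and 23.4 and 23.9 in wild-type retinas. Both *rd7* libraries were higher by a similar amount, and the log2 fold change was 0.48 (SE 0.05, adjusted p = 0.0019). Its transcript is AT-rich, with a GC content of 36.5%, and the correction for GC and length brought it to 0.07 (adjusted p = 0.313). *Calb1* was called in the 12 other alternatives. The same correction left *Prox1*, *Onecut1*, *Gja1* and *Gja10* called.

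The fold of *Prox1* was larger than that of *Calb1*, which could be read inside each library, where the scaling of the library drops out. The ratio of *Prox1* to *Calb1* FPKM was 0.776 and 0.733 in *rd7* and 0.507 and 0.526 in wild-type libraries, without overlap. The ratio of *Lhx1* to *Calb1* was 0.0480 and 0.0358 in *rd7* and 0.0393 and 0.0324 in wild-type libraries. The ratio of *Onecut1* to *Calb1* was 0.0628 and 0.0472 against 0.0473 and 0.0401. Both of these ratios overlapped between the genotypes. The ratio of *Prox1* to the amacrine gene *Gad1*, which encodes a GABA-synthesizing enzyme, was 0.267 and 0.238 in *rd7* against 0.161 and 0.158 in wild-type libraries. All of these ratios are of FPKM without the GC and length correction, which moved *Calb1* more than the other horizontal cell factors here. With it the log2 fold changes were 0.85 for *Prox1*, 0.79 for *Onecut1*, 0.46 for *Lhx1* and 0.07 for *Calb1*. *Onecut1* then stood about as far from *Calb1* as *Prox1* did. The ratios are descriptions of 2 pools per genotype and were not tested.

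**Figure D2:**
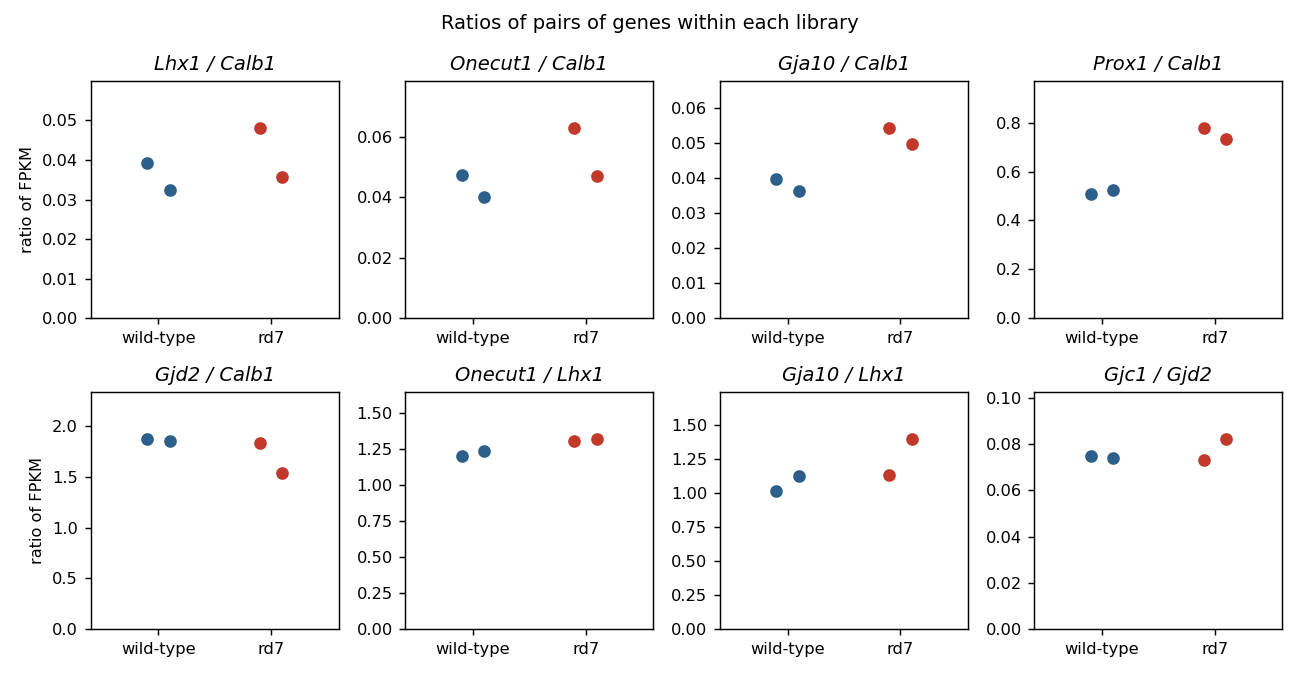
Ratios of the FPKM of pairs of genes within each library (y axis, linear, from 0), with 1 point per library in wild-type and *rd7* retinas. *Prox1* to *Calb1* separates the genotypes at 0.733 and 0.776 against 0.507 and 0.526, whereas *Lhx1* to *Calb1* overlaps.

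Among the connexins, *Gjd2* was by far the most abundant. It forms the gap junctions between cones and rods, between cones, and between AII amacrine cells, and lies at chr2:113835337-113839355 on the minus strand. Its FPKM was 59.3 and 51.9 in *rd7* and 43.8 and 44.3 in wild-type retinas. Both *rd7* libraries were above, but they spread more widely than the wild-type libraries. The log2 fold change of 0.33 (SE 0.07, adjusted p = 0.0146) exceeded that of 73.4% of the genes tested. With median-ratio scaling it was 0.18 (adjusted p = 0.0921), and with the GC and length correction 0.13 (adjusted p = 0.228), both short of the threshold, and it was called in 7 of 13 alternatives. Among the others it was not called without wild-type replicate 1 (adjusted p = 0.104) or replicate 2 (adjusted p = 0.0824). The locus shares 55 bases with *A530058N18Rik* on the opposite strand. The labels do not describe a stranded library, so reads in those bases cannot be assigned to either gene, and *A530058N18Rik* fell from 23.0 and 22.8 FPKM in wild-type to 20.8 and 19.2 FPKM in *rd7* (log2 fold change -0.20, adjusted p = 0.0399).

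The cone markers differed widely among themselves, from a log2 fold change of -0.16 for *Opn1mw*, 0.08 for *Arr3* and 0.70 for *Cnga3* to 3.17 for *Gnat2*, and *Gjd2* with 0.33 lay inside this range. The ratio of *Gjd2* to *Gnat2*, the cone transducin alpha subunit, was 0.0783 and 0.0587 in *rd7* and 0.499 and 0.474 in wild-type libraries, where *Gnat2*, the cone marker with the highest fold change, stood at 757 and 884 FPKM in *rd7* and 87.8 and 93.4 FPKM in wild-type retinas. The ratio of *Gjd2* to *Calb1* was 1.83 and 1.54 in *rd7* and 1.87 and 1.85 in wild-type libraries. This order is of FPKM without the GC and length correction. With it the log2 fold change was 0.13 for *Gjd2* and 0.07 for *Calb1*.

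*Gja10* encodes a connexin of the horizontal cell network, and in the retina it is found mainly in horizontal cells. The table places it at chr4:32687840-32689357 on the minus strand, which covers the coding exon. Its FPKM was 1.75 and 1.68 in *rd7* and 0.933 and 0.870 in wild-type retinas, from an estimated 49.6 to 95.1 reads. The replicates of each genotype were close to each other, and the log2 fold change was 0.86 (SE 0.15, adjusted p = 0.00676). Leaving out wild-type replicate 1 or replicate 2 moved the adjusted p to 0.0513 and 0.0508, and all other alternatives kept the call. Relative to *Calb1*, *Gja10* stood at 0.0542 and 0.0499 in *rd7* and 0.0399 and 0.0365 in wild-type libraries. Relative to *Lhx1* it stood at 1.13 and 1.39 in *rd7* and 1.02 and 1.12 in wild-type libraries, which do not overlap but lie close together. Relative to *Onecut1* it overlapped, at 0.863 and 1.06 in *rd7* against 0.843 and 0.910 in wild-type libraries.

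*Gjc1* (chr11:102660792-102681000, minus strand) encodes the connexin on the bipolar side of many junctions between cone bipolar and AII amacrine cells, and it is also found in vessel walls. Its FPKM was 4.34 and 4.26 in *rd7* and 3.27 and 3.28 in wild-type retinas. The replicates agreed closely within each genotype, and the log2 fold change was 0.38 (SE 0.08, adjusted p = 0.0114). It was 0.23 (adjusted p = 0.058) with median-ratio scaling and 0.12 (adjusted p = 0.287) with the GC and length correction. It was called in 7 of 12 alternatives, and not without wild-type replicate 1 (adjusted p = 0.104) or replicate 2 (adjusted p = 0.0898). The ratio of *Gjc1* to *Gjd2* overlapped, at 0.0732 and 0.0821 in *rd7* and 0.0748 and 0.0740 in wild-type libraries.

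*Gja1* (chr10:56097106-56110225, plus strand) encodes the main connexin of astrocytes, which is also made by Müller glia, retinal pigment epithelium and vessel cells. Its FPKM was 2.81 and 2.21 in *rd7* and 1.24 and 1.13 in wild-type retinas. The *rd7* libraries lay clearly above and also apart from each other. The log2 fold change was 1.01 (SE 0.16, adjusted p = 0.00505), and it was called in 11 of 12 alternatives. Without a filter on low FPKM the adjusted p was 0.071. Its ratio to the Müller cell glutamate transporter gene *Slc1a3* was 0.0546 and 0.0465 in *rd7* against 0.0404 and 0.0344 in wild-type libraries. Its ratio to the endothelial tight junction gene *Cldn5*, added after its values were seen, was 0.174 and 0.288 against 0.163 and 0.131. Ratios to other markers of these cells were not computed. Log2 fold changes ranged from 0.0525 to 0.672 among the Müller cell markers tested. They ranged from 0.147 to 0.993 among vascular and from 0.0947 to 1.27 among pigment epithelium markers. That of *Gja1* lay above the Müller cell range, just above the vascular range and inside the pigment epithelium and astrocyte ranges.

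**Figure D3:**
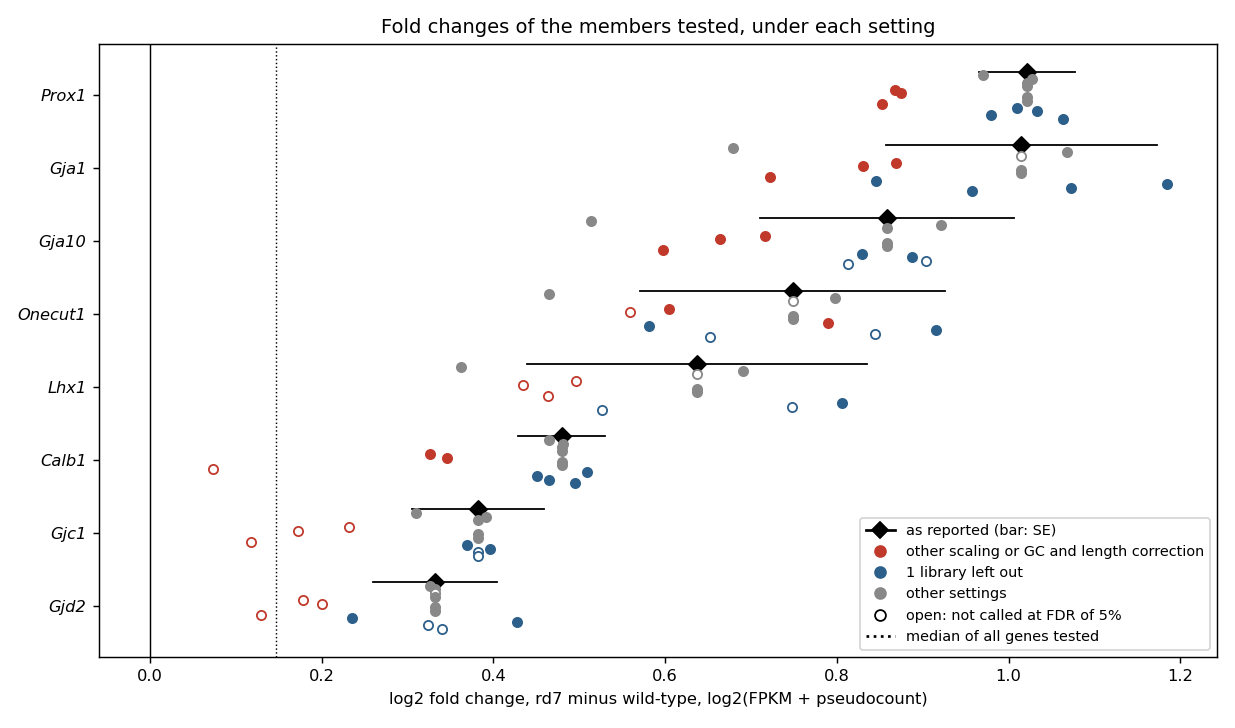
Log2 fold changes (x axis, *rd7* minus wild-type) of the 8 genes tested, as reported (diamonds with SE) and under each alternative processing (circles, open where the gene was not called at an FDR of 5%), with the median of all genes tested, 0.15, as a dotted line. Every value for *Prox1* lies between 0.85 and 1.06 and is filled, whereas *Calb1* falls to 0.07 and *Gjd2* to 0.13 with the GC and length correction.

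Because the levels of connexins are compared per length, the share of each in the summed FPKM of the 20 connexin genes listed could be followed within a library. This sum was 72.8 and 64.0 FPKM in *rd7* and 53.4 and 54.1 FPKM in wild-type retinas. *Gjd2* made up 81.4% and 81.0% of it in *rd7* and 82.0% and 81.8% in wild-type libraries. *Gja1* took a larger share in *rd7*, 3.87% and 3.44% against 2.31% and 2.09%. *Gja10* did so too, with 2.41% and 2.62% against 1.75% and 1.61%. *Gjc1* was at 5.96% and 6.65% in *rd7* and 6.13% and 6.05% in wild-type libraries, which overlap. The remaining 16 connexins together made up 6.34% and 6.31% in *rd7* and 7.86% and 8.45% in wild-type libraries.

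Of the 16 other connexins, 15 had a mean FPKM below 1. Only *Gjc3*, a connexin of oligodendrocytes and Schwann cells, reached the filter. Its FPKM was 1.50 and 1.55 in *rd7* and 1.81 and 1.67 in wild-type retinas, with a log2 fold change of -0.18 (SE 0.13, adjusted p = 0.285 by limma). With the GC and length correction it was -0.50 (adjusted p = 0.0386) and called lower. The 15 others have no test. Of the pannexins and gap junction scaffolds, 4 of 6 were tested. Their share called higher was smaller than the 37.6% over all genes tested, and only 1 was called higher. This was *Panx1*, which encodes a large-pore channel protein, with 4.95 and 3.65 FPKM in *rd7* against 2.98 and 3.03 FPKM in wild-type retinas (log2 fold change 0.49, adjusted p = 0.0421). It was called in 5 of 12 alternatives, and not without wild-type replicate 1 (adjusted p = 0.177) or replicate 2 (adjusted p = 0.145).

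Of 11 further genes of horizontal cells 10 were tested, with a median log2 fold change of 0.21 against 0.15 for all genes tested. Of these, 3 of 10 were called higher and 0 lower, which is no larger a share than the 37.6% of all genes tested. At an unadjusted p under 0.05 by limma, 5 were higher and 0 lower. At that threshold at least 37.6% of all genes tested were higher and at least 8.80% lower, and the exact shares were not computed. *Tfap2b*, a transcription factor of horizontal and amacrine cells, had 34.9 and 34.7 FPKM in *rd7* and 27.7 and 28.5 FPKM in wild-type retinas (log2 fold change 0.31, adjusted p = 0.00505). *Slc32a1*, the vesicular inhibitory amino acid transporter of horizontal and amacrine cells, had 37.3 and 38.7 against 32.2 and 32.2 FPKM (0.24, adjusted p = 0.0117). *Megf10*, a cell-surface protein that spaces horizontal cells and starburst amacrine cells, had 6.00 and 4.91 against 3.16 and 3.46 FPKM (0.70, adjusted p = 0.00623). *Tfap2b* dropped to 0.01 (adjusted p = 0.884) with the GC and length correction, and *Slc32a1* was not called with either other scaling. The number of these 10 genes called depended on which library was left out, as did the number over all genes. With 1 library left out, the log2 fold change was 0.56 to 0.84 for *Megf10*, 0.29 to 0.33 for *Tfap2b* and 0.21 to 0.26 for *Slc32a1*. The most abundant gene, *Nefl*, a neurofilament of several retinal neurons, was at 213 and 189 FPKM in *rd7* and 173 and 175 FPKM in wild-type retinas (0.20, adjusted p = 0.053), and *Onecut3*, the third *Onecut* gene, at 1.07 and 1.12 against 1.09 and 1.15 FPKM (-0.04, adjusted p = 0.867).

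Marker lists of other retinal cells were read in the same fit, where 37.6% of all genes tested were called higher and 8.80% lower. Of the 10 cone markers 8 were called higher (median 1.37), and of the 6 rod markers tested 3 were lower (median -0.22). Of the 8 bipolar cell markers, 6 were called higher (median 0.55), including *Grik1* with 0.91 and *Trpm1* with 0.78, and their summed FPKM was between 613 and 754 in *rd7* and between 506 and 537 in wild-type libraries. Of the 8 amacrine markers 5 were higher and 1 lower, with sums of 287 to 299 against 245 to 259 FPKM. These amacrine calls turned with the scaling, to 0 higher and 2 lower with median ratios and 1 higher and 2 lower with quantiles. Of the 12655 genes tested, 2479 and 2404 were lower with these 2 scalings. There were 0 amacrine calls in either direction with the GC and length correction. The Müller cell list had 3 of 6 higher, with sums of 1214 to 1284 against 1118 to 1148 FPKM. The vascular list had 2 of 8 higher, a smaller share than over all genes, with sums of 57.7 to 82.4 against 42.7 to 47.5 FPKM. The pigment epithelium list had 4 of 6 tested higher, with sums of 55.8 to 62.3 against 22.2 to 34.9 FPKM. Among these, *Tyrp1* passed the filter only through its *rd7* libraries, with a wild-type mean of 0.705 FPKM. The count for this list was 3 with either other scaling (19.7% and 18.6% of all genes). It was 2 with the GC and length correction (12.4%), 1 at an FDR of 1%, and 0 when no filter was set (10.3%). For ganglion cells 2 of 7 were higher, with overlapping sums, and for progenitors 1 of 4 tested was higher, both also smaller shares than over all genes. Of the 9 progenitor markers, however, 5 had a mean FPKM below 1. When no filter was set, 3 progenitor markers were called higher and 0 lower, where 10.3% of all genes were called higher. Without wild-type replicate 1, 0 ganglion cell markers and 1 vascular marker were called higher. No marker of these lists was at 0 in all libraries. The most abundant marker of each list had a log2 fold change of 2.19 for *Pde6h* (cone), -0.79 for *Gnat1* (rod), 0.24 for *Pcp2* (bipolar), 0.36 for *Gad1* (amacrine), 0.11 for *Glul* (Müller cell), -0.08 for *Sncg* (ganglion cell), 0.51 for *Kdr* (vessel), 1.15 for *Ttr* (pigment epithelium) and 0.43 for *Ccnd1* (progenitor), of which *Pcp2*, *Glul* and *Sncg* were not called. *Gfap*, the astrocyte filament gene, was at 10.3 and 28.1 FPKM in *rd7* and 7.59 and 8.14 FPKM in wild-type retinas (adjusted p = 0.0831), and the summed astrocyte list was at 17.8 and 34.3 against 14.1 and 15.5 FPKM. Pigment epithelium and glia can express *Gja1*, amacrine and bipolar cells *Prox1*, *Gjd2* and *Gjc1*, and vessels *Gjc1* and *Gja1*, and the part of these cells in the differences was not tested.

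**Figure D4:**
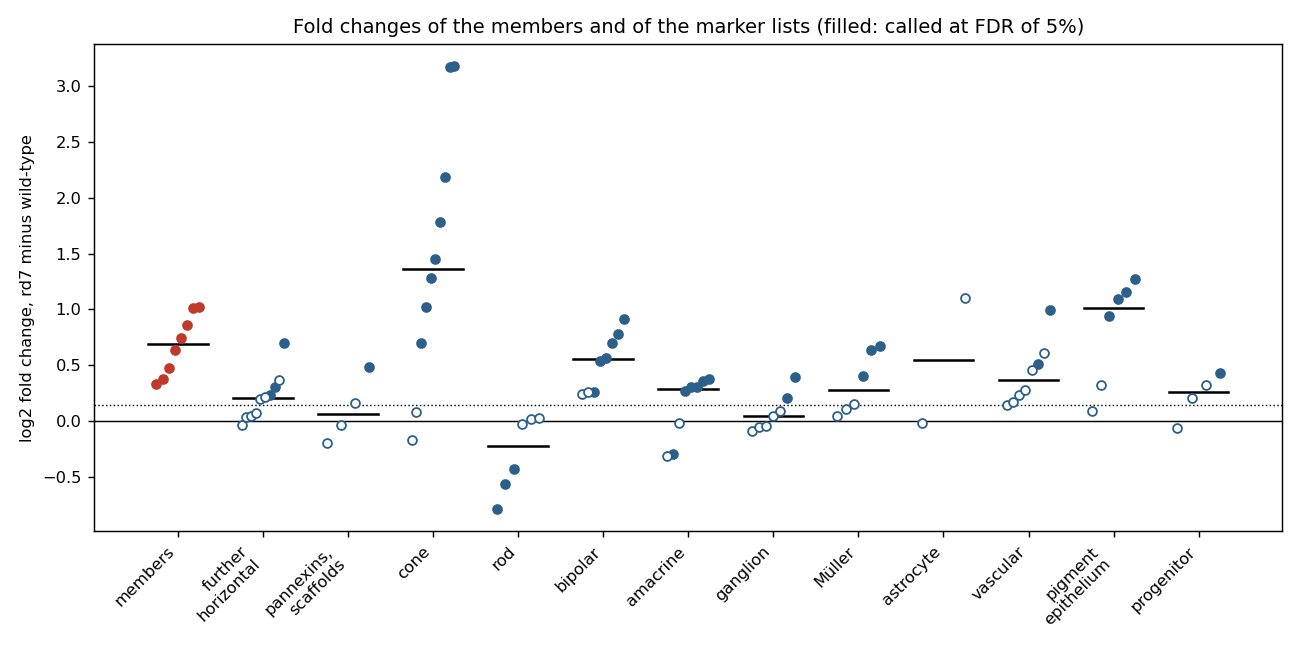
Log2 fold changes (y axis, *rd7* minus wild-type) of each gene tested in the members and the marker lists, with 1 point per gene, filled where called at an FDR of 5%, a line at 0 and a dotted line at the median of all genes tested, 0.15. The members lie between 0.33 and 1.02, the cone list reaches 3.17, and the bipolar list has a median of 0.55.

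The stretches upstream of the transcription starts were searched for short motifs, to show whether sequences related to Nr2e3 and photoreceptor factors lie next to these genes. The RefSeq promoter table used here (GRCm38.p6) was matched for 7 of the 10 genes, and *Onecut2*, *Calb1* and *Gjc1* were not analysed. In the 250 bases before each start, on both strands, the letters AAGTCA of the Nr2e3 half-site occurred in 13.1% of all 32851 promoters, TAATCC of the core bound by the photoreceptor factor Crx in 6.25%, and ATTGAT of the core bound by Onecut factors in 6.72%. AAGTCA was found in *Prox1* and *Gja10*, TAATCC in *Gjd2*, and ATTGAT in 0 of the 7 genes. The 30 bases around each match, as located on mm9, are given because they are the only windows of these genes with one of the motifs, on the strand of the gene with the match (or its reverse complement) in capitals.
*Prox1*, chr1:191993411-191993440: gggggcgcccggTGACTTtcctctgtgtgc
*Gjd2*, chr2:113839367-113839396: ctacttaagggcGGATTAgaggcggtggcc
*Gja10*, chr4:32689451-32689480: caggaattgtgtTGACTTgagccaagagtc
*Gja10*, chr4:32689358-32689387: tctgtatgtttcagatgTGACTTcctaacc
The *Prox1* match lies 34 bases before the second annotated start, in an intron of *Prox1*. The *Gjd2* match lies 29 bases before the start, in an exon of *A530058N18Rik* on the opposite strand. The *Gja10* matches lie 111 and 13 bases before the RefSeq start and inside the 5′ untranslated region of *Gja10* in the annotation of mm9, because the RefSeq model begins at the coding sequence. A match of 6 letters is a description of the sequence and was not tested for binding.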

How the data were processed

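RNA was sequenced by the authors as single 50-base reads on 1 Illumina lane. Per the labels, the submitters' processing notes name TopHat 1.4.1, Cufflinks 1.3.0, Cuffdiff and the mm9 build. The authors deposited FPKM for each gene and library, with a status per estimate. Their comparison table (pooled FPKM, fold changes, p-values and q-values) was not used. Loci with a failed status in a library were left out (262 of 22095). Read depth was estimated from the FPKM of single reads in single-transcript genes.

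The values were transformed to log2(FPKM + 0.1). In R 4.3.3, limma 3.58.1 was fitted to genes whose FPKM averaged 1 or more. The moderated test was two-sided, used a variance trend and no block, and was read at an FDR of 5%. An exact permutation test of 2 against 2 libraries cannot go below p = 0.333, so none was run. The p-values measure the spread between pools of retinas. FPKM is compositional, so a few abundant genes can shift all others. Alternatives were another pseudocount, filter, scaling, FDR, variance model or block, a spline correction for GC content and exonic length (4 degrees of freedom each), and leaving out each library.

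The members and lists were chosen with earlier results of these data known. All 10 members are named, and of the other lists up to 4 called genes per direction, connexins past the filter and the most abundant gene. *Onecut3*, *Foxn4*, *Cldn5* and *A530058N18Rik* were added after their values were seen. The cone markers *Opn1mw*, *Arr3* and *Cnga3* are also named outside this rule. Promoters came from RefSeq (GRCm38.p6) and gene annotation from mm9. *Tfap2b* is listed as *Tcfap2b*.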

Additional observations from a re-analysis of the deposited data

How the results depend on the processing

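The calls of the members depended on the scaling and on the wild-type libraries more than on the pseudocount. Members called higher numbered 8 in the reported fit and also with a replicate block, without a variance trend and with a pseudocount of 1 or 0.01. The count was 4 without a filter, 3 with a mean FPKM of at least 5 (3 tested), 5 with median-ratio scaling, and 4 each with quantile normalization, an FDR of 1% and the GC and length correction. Leaving out 1 library gave 3 to 8. Single members kept their call in 52 of 67 refits on all libraries and in 21 of 31 with 1 library left out, and 0 changed sign. Over all genes, the calls higher and lower were 2249 and 455 without a filter, 2492 and 2479 for the median-ratio scaling, 2350 and 2404 after quantile normalization, 2582 and 446 at an FDR of 1%, and 1523 and 1837 with the GC and length correction. Leaving out 1 library gave 1515 to 5410 higher and 260 to 1627 lower. For further horizontal cell genes it gave 0 to 6 higher. Of the other connexins, 1 was lower with the GC and length correction. The cause of these changes was not tested. When 1 library is left out, the lone library of its genotype is assumed to vary like the other genotype.

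The replicate numbers did not pair the libraries, since the deviations of same-numbered libraries from their genotype means correlated at r = -0.0265 over 12655 genes. With the replicate block 4508 genes were higher and 1091 lower, and it ended no member's call. Depth limits *Ptf1a*, *Foxn4* and most other connexins.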
